A study of Caenorhabditis elegans with 36 samples.

Results

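The miRNAs mir-238, mir-239a and mir-239b of the nematode Caenorhabditis elegans were followed across a time course of rotenone treatment. They were chosen by name, as the hairpins cel-mir-238, cel-mir-239a and cel-mir-239b of a table of 250 hairpins, though with earlier results of these data known. All 3 passed the filter on low counts, as did 193 hairpins in all. Small RNA had been sequenced from whole N2 hermaphrodites, N2 being the wild-type laboratory strain. Worms were given rotenone at 100 nM or DMSO at 0.1 % and taken at 6 hours and at 1, 2, 3 and 5 days, and worms given H2O at 0.1 % were taken at 1 and 5 days. Rotenone inhibits complex I of the mitochondrial respiratory chain, DMSO is a solvent, and the H2O worms are a further vehicle group without it. Each of the 12 groups had 3 libraries. No transgene or mutation is named in the labels, and times are given there as age, whereas the series title counts them from the start of treatment.

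A miRNA is cut from a hairpin precursor, is loaded into an Argonaute protein and pairs with messenger RNAs mainly through its seed, the bases next to its 5′ end, to lower their translation and stability. mir-238, mir-239a and mir-239b are grouped as a family because their mature miRNAs share that seed. In C. elegans they are known from work on ageing: loss of mir-238 shortens adult lifespan, whereas a deletion that removes mir-239a and mir-239b together lengthens it. In the Ensembl annotation of the WBcel235 assembly mir-238 (WBGene00003331) lies on the minus strand of chromosome III, next to mir-80, a bantam-like miRNA on the same strand. mir-239a (WBGene00003332) and mir-239b (WBGene00003333) lie on chromosome X on opposite strands, plus for mir-239a and minus for mir-239b, pointing away from each other. The genes annotated between them are 2 in number, C34E11.9, a non-coding RNA, and C34E11.20, a snoRNA. None of the 3 hairpins overlaps another annotated gene.

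The libraries held between 4361246 and 14960062 counts each. The members were well covered, with 58421 to 136945 counts per library for mir-238, 5656 to 19538 for mir-239a and 6075 to 26433 for mir-239b, so that counting error was at most 1.33% of a value. Levels are CPM, the reads of a hairpin per 1000000 reads of its library after TMM scaling. Differences are log2 fold changes ± SE, tested in edgeR by quasi-likelihood and adjusted over the 193 hairpins by the Benjamini-Hochberg method, with a threshold of 0.05. Each group was sequenced on 1 of 4 lanes, and the rotenone, DMSO and H2O groups of a time were always on different lanes, so treatment and lane cannot be told apart within a time. Neighbouring times of a treatment were on different lanes too, as were 1 day and 5 days of each treatment. Time and lane cannot be told apart in those comparisons. The labels do not say whether the libraries of 1 group are separate cultures, and the spread behind every p-value may be technical. The markers checked for tissues of the whole worm (the mir-35 family for oocytes and embryos, mir-1 for muscle, mir-60 for intestine, mir-791, mir-790, lsy-6 and mir-124 for neurons, mir-228 for glia) were all detected, and fewer cells of a type cannot be told apart from less RNA per cell.

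Time moved all 3 members far more than rotenone did, and each followed its own course. mir-239a climbed at every step, mir-238 stayed nearly level over the first days and then climbed, and mir-239b was high at 6 hours, low at 1 to 3 days and high again at 5 days. Between the lowest and the highest of the 12 group means mir-239a spanned 4.35-fold (706 to 3071 CPM), mir-238 2.78-fold (7267 to 20230 CPM) and mir-239b 2.38-fold (795 to 1891 CPM). Over the 5 times the test of any change gave adjusted p = 4.8e-27 for mir-239a, 2.32e-24 for mir-238 and 4.38e-14 for mir-239b in DMSO worms, and 1.52e-25, 8.59e-22 and 1.77e-10 in rotenone worms. Change with time was the rule among these miRNAs: 89.6% of the 193 hairpins passed that test in DMSO and 86.5% in rotenone.

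**Figure D1:**
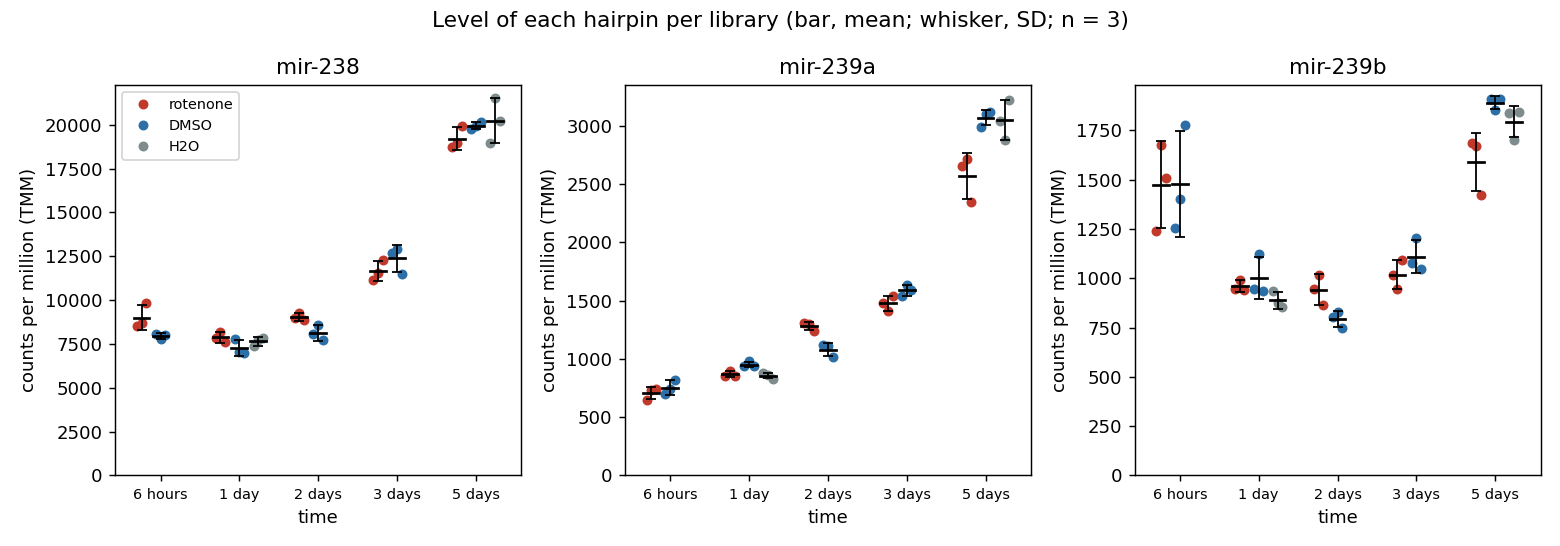
CPM (TMM scaled) of mir-238, mir-239a and mir-239b in each library against time, with rotenone left of DMSO and H2O at each time (points, libraries; bars, means; whiskers, SD, n = 3). The means of all 3 hairpins are highest at 5 days in each treatment, and mir-239b also stands high at 6 hours, at 1475 CPM in rotenone and 1478 CPM in DMSO. In rotenone the mir-239b libraries of 5 days (1422 to 1685 CPM) overlap those of 6 hours (1239 to 1677 CPM).

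mir-239a, the member on the plus strand of the X chromosome, averaged 754 ± 64, 951 ± 24, 1079 ± 58, 1588 ± 50 and 3071 ± 68 CPM in DMSO worms at 6 hours and 1, 2, 3 and 5 days (SD, n = 3 each). In rotenone worms the averages at the same times were 706 ± 53, 868 ± 26, 1280 ± 36, 1476 ± 64 and 2569 ± 198 CPM. Every library of a later time lay above all those of the time before it, in either treatment, as it did for 31.6%, 21.2%, 26.4% and 26.9% of hairpins at the 4 steps in DMSO and 32.1%, 22.3%, 26.9% and 26.9% in rotenone. The largest step in DMSO was that of 5 days against 3 days, at 0.95 ± 0.063 (1.93-fold, adjusted p = 1.62e-15), which had the third smallest p of all hairpins in that comparison. In H2O worms mir-239a averaged 3050 ± 170 CPM at 5 days and 857 ± 24 CPM at 1 day, a 3.56-fold rise (1.83 ± 0.064, adjusted p = 1.94e-24) whose p was the smallest of the 193, of which 57.5% passed and 27.5% rose. The smaller steps of 2 days against 1 day in DMSO (0.18 ± 0.062, adjusted p = 0.0161, where 44% of hairpins passed) and 3 days against 2 days in rotenone (0.21 ± 0.062, adjusted p = 0.0101, where 36.8% did) were lost under some settings. The first missed the threshold without DMSO replicate 1 (0.17, adjusted p = 0.0582) or 3 (0.17, adjusted p = 0.0589) of 1 day or replicate 1 (0.16, adjusted p = 0.0742) or 2 (0.16, adjusted p = 0.0694) of 2 days. The second missed it without rotenone replicate 3 of 2 days (0.18, adjusted p = 0.055) or replicate 3 of 3 days (0.17, adjusted p = 0.0755), in DESeq2 (0.14), with DESeq2 size factors (0.14) or total counts (0.10) as scaling, and with no filter on low counts (0.18).

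mir-238, the most abundant member, averaged 7940 ± 168, 7267 ± 453, 8115 ± 453, 12370 ± 754 and 19940 ± 188 CPM at the same times in DMSO worms. In rotenone worms it averaged 9001 ± 700, 7869 ± 305, 9041 ± 217, 11650 ± 577 and 19200 ± 639 CPM. From 6 hours to 2 days its group means thus stayed between 7267 and 9041 CPM, with the libraries of neighbouring levels overlapping. It rose at 3 days against 2 days (0.61 ± 0.060 in DMSO, adjusted p = 5.56e-11, and 0.37 ± 0.059 in rotenone, adjusted p = 6.32e-06) and again at 5 days against 3 days (0.69 ± 0.060, adjusted p = 1.57e-12, and 0.72 ± 0.060, adjusted p = 6.71e-13). In H2O worms it averaged 20230 ± 1299 CPM at 5 days and 7646 ± 247 CPM at 1 day (2.65-fold, 1.40 ± 0.060, adjusted p = 6.72e-22). Before that, 1 day against 6 hours gave -0.19 ± 0.059 in rotenone (adjusted p = 0.00453), which missed the threshold without rotenone replicate 3 of 6 hours (-0.12, adjusted p = 0.103), and -0.13 ± 0.059 in DMSO (adjusted p = 0.057). That last value passed without DMSO replicate 1 of 1 day (-0.18, adjusted p = 0.0176), with total counts (-0.15, adjusted p = 0.0423) and with no filter (-0.17, adjusted p = 0.0394). The step of 2 days against 1 day passed in rotenone (0.20 ± 0.059, adjusted p = 0.00888, where 35.2% of hairpins passed), though not with no filter (0.18, adjusted p = 0.0567). It also passed in DMSO (0.16 ± 0.059, adjusted p = 0.0272), where it was lost without replicate 2 (0.16, adjusted p = 0.142) or 3 (0.13, adjusted p = 0.126) of 1 day or replicate 2 of 2 days (0.11, adjusted p = 0.175).

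mir-239b, on the minus strand beside mir-239a, took the opposite course to its neighbour early on. It averaged 1478 ± 271, 1000 ± 107, 795 ± 40, 1110 ± 85 and 1891 ± 31 CPM in DMSO worms from 6 hours to 5 days, and 1475 ± 221, 961 ± 28, 943 ± 77, 1017 ± 73 and 1592 ± 147 CPM in rotenone worms. At 1 day against 6 hours it fell, to 0.677 of its 6 hour level in DMSO (-0.56 ± 0.096, adjusted p = 2.93e-06) and to 0.651 in rotenone (-0.62 ± 0.096, adjusted p = 6.98e-07), while mir-239a rose (0.33 ± 0.063, adjusted p = 1.32e-05, and 0.30 ± 0.063, adjusted p = 8.1e-05). Tissue markers moved at the same step. The 8 hairpins of the mir-35 family together held 111500 to 125700 CPM at 1 day and 22050 to 24870 CPM at 6 hours in DMSO, and all 8 rose in both treatments. The glial mir-228 fell in DMSO (-0.73, adjusted p = 1.2e-07) and in rotenone (-0.36, adjusted p = 0.00273). Of the 4 neuronal hairpins mir-790 rose in both (0.60 and 0.59), and in rotenone lsy-6 (-0.26) and mir-791 (-0.78) fell, as did the intestinal mir-60 (-0.23). The part of these markers in the changes of the members was not tested. mir-239b fell further at 2 days against 1 day in DMSO (-0.33 ± 0.096, adjusted p = 0.00488), a call lost without DMSO replicate 2 of 1 day (-0.22, adjusted p = 0.114). In rotenone that step was -0.027 ± 0.096 (95% interval -0.22 to 0.17). It rose at 3 days against 2 days in DMSO (0.48 ± 0.096, adjusted p = 7.12e-05), where rotenone gave 0.11 ± 0.096 (adjusted p = 0.433), and at 5 days against 3 days in both (0.77 ± 0.097, adjusted p = 1.28e-08, and 0.65 ± 0.097, adjusted p = 5.38e-07). In H2O worms it averaged 1795 ± 80 CPM at 5 days and 888 ± 41 CPM at 1 day (2.02-fold, 1.02 ± 0.097, adjusted p = 9.61e-12).

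In these steps the members were not alone. At 5 days against 3 days all 3 rose in both treatments, where 22.8% of the 193 hairpins rose in DMSO (of 45.6% that passed) and 21.8% in rotenone (of 49.2%). At 3 days against 2 days all 3 rose in DMSO, where 24.4% did (of 47.7%). At 1 day against 6 hours 1 member rose and 1 fell in DMSO, and 1 rose and 2 fell in rotenone, where 65.3% and 63.7% of hairpins passed in either direction. Pairs of times of 1 treatment that shared a lane were 2 in number, and were compared after the data had been seen. In DMSO, on lane 1, 5 days against 2 days gave a rise of 2.85-fold for mir-239a (adjusted p = 3.37e-22), 2.46-fold for mir-238 (adjusted p = 6.45e-21) and 2.38-fold for mir-239b (adjusted p = 3.22e-14), where 67.9% of hairpins passed. In rotenone, on lane 8, 3 days against 1 day gave a rise of 1.70-fold for mir-239a (adjusted p = 4.58e-13) and 1.48-fold for mir-238 (adjusted p = 3.13e-10), and 1.06-fold for mir-239b (adjusted p = 0.583), where 42.5% did. Scaling by total counts in place of TMM lowered the median of all hairpins by 0.21 for 5 days against 3 days in DMSO and for 5 days against 1 day in H2O, and by 0.18 and 0.10 for 1 day against 6 hours and 3 days against 2 days in rotenone. It moved the split of rises and falls among all hairpins to 26 and 69 at 5 days against 3 days in DMSO, where TMM gave 44 and 44, to 33 and 62 in rotenone, where TMM gave 42 and 53, to 37 and 80 at 5 days against 1 day in H2O, where TMM gave 53 and 58, and to 33 and 49 at 3 days against 2 days in DMSO, where TMM gave 47 and 45. Under it mir-239a still rose at 5 days against 3 days in DMSO (0.74), while its rise at 1 day against 6 hours in rotenone missed the threshold (0.12, adjusted p = 0.109). Most tissue markers fell at 5 days against 3 days, while the members rose. The muscle marker mir-1 held 288 to 396 CPM at 5 days and 449 to 555 CPM at 3 days in DMSO, and 310 to 376 CPM and 514 to 526 CPM in rotenone. Of the mir-35 family 5 of 8 hairpins fell in DMSO and all 8 in rotenone, and mir-228 of glia fell in both. Of the 4 neuronal hairpins 3 fell in both treatments, while mir-791 gave 0.14 in DMSO (adjusted p = 0.516) and rose in rotenone (0.92, adjusted p = 2.52e-05). The intestinal mir-60 fell in DMSO (-0.25, adjusted p = 0.0271) and gave 0.0036 in rotenone (adjusted p = 0.983). Their part was not tested.

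Because library scaling cancels in the ratio of the counts of a pair of hairpins in 1 library, ratios compare the members without it. RefSeq lists hairpins of 98 bases for all 3 members, a length that does not by itself make their counts comparable. mir-239a and mir-239b may share some reads, since the treatment of reads with several matching hairpins is not given. Ligation can favour some small RNAs, so the size of a ratio is not a ratio of molecules, but its change between libraries can be read. At 6 hours mir-239a had far fewer reads than mir-239b: the ratio of mir-239a to mir-239b was 0.521, 0.436 and 0.492 in the rotenone libraries and 0.555, 0.531 and 0.462 in the DMSO libraries. At 1 day the libraries lay close to equality, at 0.901, 0.905 and 0.905 in rotenone, 0.991, 0.871 and 1.006 in DMSO and 0.941, 0.984 and 0.971 in H2O. From 2 days on mir-239a led in every library, with means of 1.36 ± 0.080 at 2 days, 1.45 ± 0.041 at 3 days and 1.61 ± 0.037 at 5 days in rotenone and of 1.36 ± 0.026, 1.43 ± 0.080 and 1.62 ± 0.052 in DMSO (SD, n = 3 each). At 5 days in H2O the mean was 1.70 ± 0.047.

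The ratio of mir-239a to mir-239b was 1.75-fold higher at 5 days than at 1 day (log2 difference 0.81 ± 0.027), and 0.84 in rotenone, 0.77 in DMSO and 0.82 in H2O when taken apart. An exact two-sided permutation test within treatments gave p = 0.00025, the smallest its 8000 arrangements allow, and 0.00025 adjusted over the 3 ratios. At 1 day against 6 hours it was 1.86-fold higher (0.90 ± 0.064, exact permutation p = 0.005, the smallest possible, adjusted 0.0075). The ratio of mir-238 to mir-239a went the other way, by -0.31 ± 0.050 at 5 days against 1 day (adjusted exact permutation p = 0.00025) and -0.48 ± 0.055 at 1 day against 6 hours (adjusted exact permutation p = 0.0075). mir-238 gained on mir-239b, by 0.49 ± 0.064 (adjusted exact permutation p = 0.00025) and 0.42 ± 0.11 (adjusted exact permutation p = 0.01). Through all of this mir-238 kept a near constant share of the reads of the family, between 78.1% ± 2.5 in DMSO at 6 hours and 82.4% ± 0.71 in rotenone at 3 days (SD, n = 3 each). The share of mir-239a moved between 6.32% ± 0.24 and 12.3% ± 0.17, and that of mir-239b between 6.82% ± 0.71 and 14.5% ± 2.2. The family as a whole held 23370 ± 312 CPM in rotenone, 24900 ± 251 CPM in DMSO and 25070 ± 1165 CPM in H2O at 5 days, and 9698 ± 357, 9218 ± 417 and 9390 ± 184 CPM at 1 day.

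**Figure D2:**
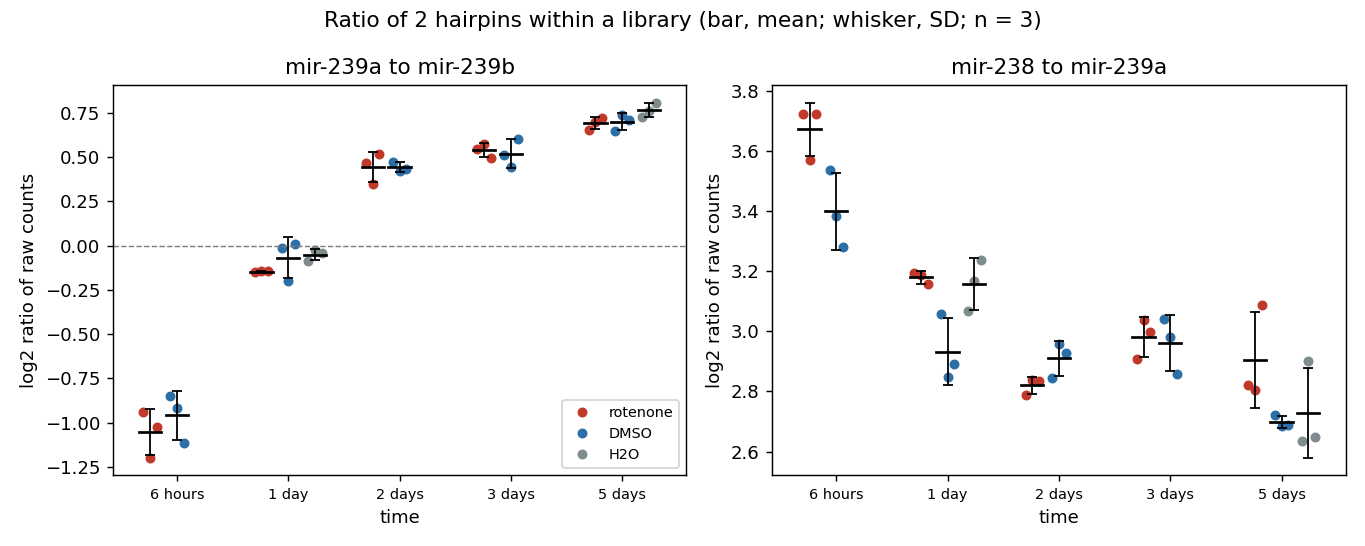
Log2 ratio of raw counts within each library against time for mir-239a to mir-239b (left) and mir-238 to mir-239a (right), with rotenone left of DMSO and H2O (points, libraries; bars, means; whiskers, SD, n = 3). The left ratio moves with time and hardly with treatment, while in the right one the rotenone means lie above those of DMSO at 4 of the 5 times.

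Rotenone set against its vehicle gave small differences, none beyond 0.26 on the log2 scale in either direction, and the sign of the estimates changed with time. Only mir-239a passed in both directions against DMSO, as higher at 2 days (0.25) and lower at 5 days (-0.26). The negative values of mir-238 and mir-239b did not pass. Each time had its own pair of lanes, so changes between times and between lane pairs cannot be told apart. At 6 hours mir-238, the member whose loss shortens life, was higher with rotenone. It had 8514, 8687 and 9804 CPM in rotenone libraries, against 8073, 7751 and 7996 CPM in DMSO libraries, so the rotenone libraries lay above those of DMSO, as for 5.18% of hairpins (0.18 ± 0.059, 1.13-fold, adjusted p = 0.0431). mir-239a had 645, 731 and 742 CPM in rotenone, against 697, 744 and 823 CPM in DMSO, and mir-239b had 1239, 1677 and 1510 CPM in rotenone, against 1254, 1401 and 1779 CPM in DMSO. Both overlapped between the groups, at -0.10 ± 0.063 (95% interval -0.22 to 0.032) and -0.0031 ± 0.096 (-0.20 to 0.19). Thus 1 of 3 members passed, where 11.9% of hairpins did and 1.04% passed as higher. That split, 2 higher and 21 lower, depended on scaling, at 3 and 10 with DESeq2 size factors and 5 and 5 with total counts. The call for mir-238 held in DESeq2 (0.22, adjusted p = 0.00314) and was lost when only these libraries were fitted (0.26, adjusted p = 0.0843), without DMSO replicate 1 (0.19, adjusted p = 0.0731), 2 (0.16, adjusted p = 0.142) or 3 (0.18, adjusted p = 0.121), and without rotenone replicate 3 (0.11, adjusted p = 0.33). Of the mir-35 family of oocytes and embryos 5 of 8 hairpins were lower with rotenone at this time, as were 21 of all hairpins. The summed level was 14780 to 22420 CPM in rotenone and 22050 to 24870 CPM in DMSO. The adjusted p was 1.73e-05 for mir-41 and 0.0428 to 0.046 for mir-35, mir-38, mir-39 and mir-40. The libraries of mir-35, mir-38 and mir-39 overlapped between the groups. The part of this family was not tested.

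At 1 day none of the members passed against either vehicle. Their adjusted p-values ran from 0.162 to 0.734 against DMSO, where 16.6% of hairpins passed, and from 0.543 to 0.884 against H2O, where 11.9% did. mir-238 had 7812, 8197 and 7596 CPM in rotenone, against 7788, 7043 and 6969 CPM in DMSO and 7367, 7736 and 7835 CPM in H2O (0.11 ± 0.059 against DMSO and 0.041 ± 0.059 against H2O), and its groups overlapped. mir-239a had 854, 899 and 852 CPM in rotenone, against 935, 979 and 939 CPM in DMSO and 879, 860 and 831 CPM in H2O. Its rotenone libraries therefore lay below those of DMSO without overlap, as for 15% of hairpins (-0.13 ± 0.063, unadjusted p = 0.0429, adjusted p = 0.162), and among those of H2O (0.019 ± 0.063). The vehicles themselves differed by 0.15 ± 0.063 for mir-239a (DMSO over H2O, adjusted p = 0.425), and 0% of hairpins passed between them in edgeR, with 14 at an unadjusted p under 0.05 and 1 in DESeq2. mir-239b had 948, 993 and 942 CPM in rotenone, against 944, 1124 and 934 CPM in DMSO and 934, 874 and 856 CPM in H2O (-0.058 ± 0.096 against DMSO and 0.11 ± 0.096 against H2O). Its rotenone libraries overlapped those of DMSO and lay above those of H2O without overlap, but mir-239b did not pass there (unadjusted p = 0.245, adjusted p = 0.543). Without DMSO replicate 2, whose mir-239b was the highest, its difference from DMSO was 0.063 in place of -0.058, and neither passed. In DESeq2 none of the 3 passed against DMSO or against H2O. With total counts mir-239a passed as lower than in DMSO (-0.21, adjusted p = 0.0228). Among tissue markers the neuronal mir-791 was lower with rotenone than with DMSO (-0.46, adjusted p = 0.0424) or H2O (-0.65, adjusted p = 0.00443). Its part was not tested.

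At 2 days all 3 members were higher with rotenone, at a time when 42.5% of hairpins passed, 21.2% as higher and 21.2% as lower. mir-239a had 1304, 1298 and 1239 CPM in rotenone, against 1119, 1107 and 1013 CPM in DMSO (0.25 ± 0.062, 1.19-fold, adjusted p = 0.00158). mir-239b had 944, 1019 and 866 CPM in rotenone, against 806, 828 and 750 CPM in DMSO (0.25 ± 0.096, 1.19-fold, adjusted p = 0.0369). mir-238 had 9003, 9274 and 8846 CPM in rotenone, against 8044, 8599 and 7701 CPM in DMSO (0.16 ± 0.059, 1.11-fold, adjusted p = 0.034). In each case the rotenone libraries lay wholly above those of DMSO, as for 25.4% of hairpins. With total counts the split of all hairpins that passed moved to 29 higher and 46 lower, where TMM gave 41 and 41. The rise of mir-239a passed without any 1 library (0.20 to 0.27, adjusted p = 0.00245 to 0.0229) and under the other settings tried. Those of mir-238 and mir-239b were lost with total counts (0.10 and 0.19, adjusted p = 0.22 and 0.108), with no filter (0.13 and 0.22, adjusted p = 0.176 and 0.0659), with only the groups compared in the fit (0.12 and 0.21, adjusted p = 0.166 and 0.0532) and without DMSO replicate 1 (0.15 and 0.26, adjusted p = 0.0717 and 0.0606) or 3 (0.12 and 0.21, adjusted p = 0.165 and 0.154) or rotenone replicate 1 (0.16 and 0.25, adjusted p = 0.059 and 0.0714) or 2 (0.14 and 0.19, adjusted p = 0.117 and 0.191). Among tissue markers 3 of 4 neuronal hairpins were lower with rotenone, with a summed level of 158 to 159 CPM in rotenone and 195 to 269 CPM in DMSO, as was mir-228 of glia (20380 to 26470 CPM in rotenone and 27140 to 38810 CPM in DMSO). Their part was not tested.

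At 3 days the members lay slightly lower with rotenone and none passed (adjusted p = 0.294 to 0.413, where 12.4% of hairpins passed). mir-239a had 1483, 1409 and 1537 CPM in rotenone, against 1539, 1638 and 1588 CPM in DMSO, without overlap, as for 13.5% of hairpins (-0.11 ± 0.062, unadjusted p = 0.101). mir-238 had 11120, 11570 and 12270 CPM in rotenone, against 12670, 12930 and 11510 CPM in DMSO (-0.086 ± 0.059). mir-239b had 1015, 946 and 1092 CPM in rotenone, against 1078, 1207 and 1046 CPM in DMSO (-0.13 ± 0.096). Both of these overlapped between the groups. In DESeq2 none of the 3 passed either, while with total counts mir-238 (-0.18, adjusted p = 0.0472) and mir-239a (-0.20, adjusted p = 0.0396) did. Of the mir-35 family 4 of 8 hairpins were higher with rotenone at this time. Its summed level was 137100 to 167400 CPM in rotenone and 124200 to 126400 CPM in DMSO. The neuronal mir-791 was lower (-0.60, adjusted p = 0.0145). The part of these markers was not tested.

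At 5 days, when few miRNAs differed between treatments, mir-239a was lower with rotenone than with either vehicle. It had 2653, 2712 and 2343 CPM in rotenone libraries, against 2994, 3099 and 3121 CPM in DMSO libraries and 3045, 2882 and 3222 CPM in H2O libraries, and no rotenone library reached those of a vehicle, as for 12.4% of hairpins against DMSO and 14% against H2O. Against DMSO it fell to 0.836 (-0.26 ± 0.062, adjusted p = 0.0194) and against H2O to 0.842 (-0.25 ± 0.062, adjusted p = 0.0311), comparisons that share the rotenone libraries. In each of them 1.04% of hairpins passed, all as lower, that is 2 of 193, and in both the other one was mir-34, a miRNA linked to stress resistance and lifespan (-0.25 ± 0.051, adjusted p = 0.00432, and -0.22 ± 0.051, adjusted p = 0.0193). DMSO and H2O differed by 0.010 ± 0.062 for mir-239a (95% interval -0.12 to 0.14), and 0 of 193 hairpins passed between them in edgeR, with 8 at an unadjusted p under 0.05 and 0 in DESeq2. At this time DMSO was on lane 1, H2O on lane 2 and rotenone on lane 3. Rotenone and its lane cannot be told apart here. mir-239b had 1685, 1669 and 1422 CPM in rotenone, against 1910, 1856 and 1909 CPM in DMSO and 1840, 1703 and 1842 CPM in H2O. Its rotenone libraries also lay below all those of both vehicles, but it did not pass (-0.25 ± 0.096, unadjusted p = 0.014, adjusted p = 0.299, and -0.17 ± 0.096, adjusted p = 0.478). mir-238 had 18750, 18930 and 19940 CPM in rotenone, against 19770, 19910 and 20140 CPM in DMSO and 18930, 21530 and 20230 CPM in H2O, and the groups overlapped (-0.054 ± 0.059 and -0.075 ± 0.059). The fall of mir-239a held in DESeq2 (-0.24, adjusted p = 0.0223, and -0.22, adjusted p = 0.0289) and was lost with the other scalings, with no filter and with only the groups compared in the fit, at values between -0.25 and -0.21. Against DMSO it was also lost without DMSO replicate 2 (-0.26, adjusted p = 0.101) or 3 (-0.25, adjusted p = 0.0744) or rotenone replicate 1 (-0.29, adjusted p = 0.0538) or 3 (-0.20, adjusted p = 0.241), and against H2O without H2O replicate 3 (-0.21, adjusted p = 0.191) or rotenone replicate 1 (-0.28, adjusted p = 0.0882) or 3 (-0.18, adjusted p = 0.229). Rotenone replicate 3 held the lowest mir-239a and mir-239b and the highest mir-238 of its group.

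**Figure D3:**
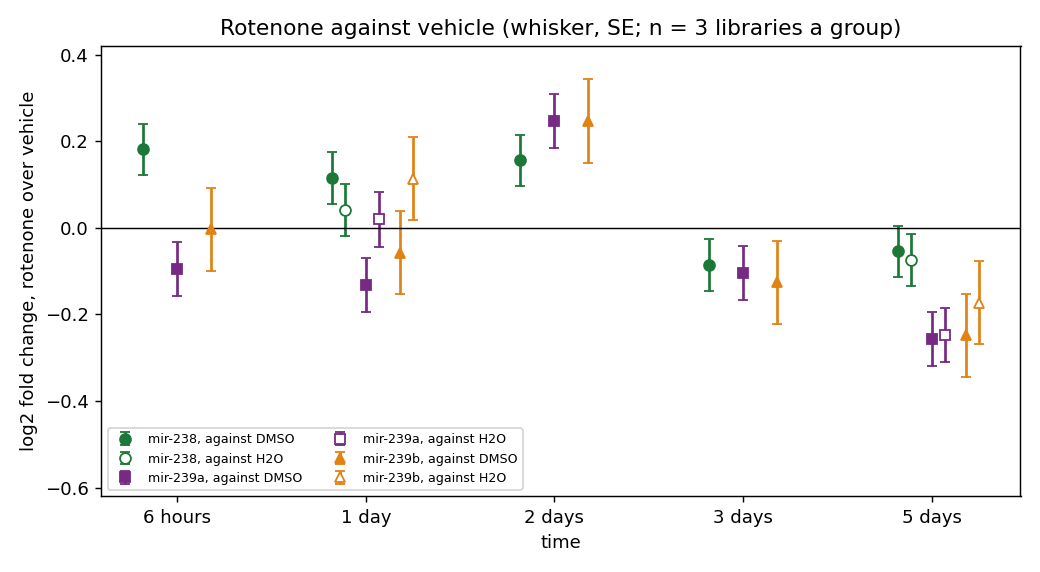
Log2 fold change of rotenone over DMSO (filled symbols) and over H2O (open symbols) at each time for the 3 members (whiskers, SE; n = 3 libraries a group). All 3 lie above 0 at 2 days, and at 5 days mir-239a lies at -0.26 against DMSO and -0.25 against H2O.

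The rotenone effect differed between times for each member in a test of the difference itself (adjusted p = 0.000314 for mir-239a, 0.0163 for mir-238 and 0.0348 for mir-239b), as it did for 45.1% of hairpins. Averaged over the 5 times rotenone gave 0.062 ± 0.027 for mir-238 (adjusted p = 0.0871), -0.069 ± 0.028 for mir-239a (adjusted p = 0.0754) and -0.038 ± 0.043 for mir-239b (adjusted p = 0.569), so none passed, where 22.3% of hairpins did. In DESeq2 mir-238 passed (0.065, adjusted p = 0.0403), and with total counts mir-239a did (-0.090, adjusted p = 0.0203). An additive fit with lane as a term, which assumes the same rotenone effect at all times, gave 0.081 for mir-238, -0.070 for mir-239a and -0.030 for mir-239b, none of which passed, and the same fit without lane gave 0.062, -0.068 and -0.037. These fits called 20 and 23 hairpins, where the fit with 1 mean per group called 43.

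The ratios within a library compare how far the members moved together under rotenone. The ratio of mir-239a to mir-239b differed by -0.032 ± 0.030 between rotenone and DMSO over the 5 times, and by -0.096 to 0.020 at the single times (exact permutation p = 0.285). The ratio of mir-238 to mir-239a was higher with rotenone than with DMSO, by 0.13 ± 0.033 (1.09-fold, exact permutation p = 0.00427 within times, adjusted over the 3 ratios 0.0128). It was higher at 4 of the 5 times, by 0.27 at 6 hours, 0.25 at 1 day, 0.020 at 3 days and 0.21 at 5 days, while at 2 days the difference was -0.090. This call was lost without the libraries numbered 2 (0.14, adjusted p = 0.0795) or 3 (0.08, adjusted p = 0.286). H2O had no part in that test. At 1 day the mean log2 ratio of mir-238 to mir-239a was 3.18 in rotenone, 3.158 in H2O and 2.932 in DMSO. The rotenone mean at 1 day thus lay near that of H2O and apart from that of DMSO. At 5 days the means were 2.905 in rotenone, 2.729 in H2O and 2.699 in DMSO. The ratio of mir-238 to mir-239b stood at 0.10 ± 0.053 (adjusted exact permutation p = 0.111).

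Other miRNAs known to affect lifespan in C. elegans gave a setting for these values. The list held mir-246, mir-228, mir-124, mir-83, mir-80, mir-71, mir-34 and lin-4, all measured. Values are for rotenone against DMSO unless H2O is named. At 2 days 4 of the 8 were higher with rotenone and 2 lower, where 42.5% of all hairpins passed, 21.2% as higher, and the medians were 0.12 for the list and 0.021 for all hairpins. The 3 with the smallest p were mir-34 (0.22 ± 0.051, adjusted p = 0.000855), which was higher, and mir-228 (-0.48 ± 0.10, adjusted p = 0.000408) and the neuronal mir-124 (-0.37 ± 0.12, adjusted p = 0.0104), which were lower. At 1 day 2 were higher, mir-34 (0.27 ± 0.051, adjusted p = 0.000298) and mir-80 (0.18 ± 0.053, adjusted p = 0.0169), where 16.6% of all hairpins passed, with a median of 0.096 for the list and 0.011 for all hairpins. Against H2O at that time mir-34 was higher (0.32 ± 0.051, adjusted p = 3.74e-05), where 11.9% of all hairpins passed. There mir-80 missed the threshold (0.14 ± 0.053, adjusted p = 0.0766). At 3 days mir-34 was higher (0.16 ± 0.051, adjusted p = 0.0274) and mir-246 lower (-0.16 ± 0.053, adjusted p = 0.0382), where 12.4% of all hairpins passed, with medians of -0.062 for the list and 0.011 for all hairpins. At 5 days mir-34 alone of the list passed, and it was lower with rotenone, where 1.04% of all hairpins passed, with medians of -0.060 for the list and -0.032 for all hairpins. At 6 hours 0 of the 8 passed in edgeR, where 11.9% of all hairpins did, with mir-228, mir-80 and mir-34 at an unadjusted p of 0.00673, 0.0186 and 0.0244, all lower, and medians of -0.097 for the list and -0.054 for all hairpins.

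Across the 12 group means the members resembled other hairpins more than each other. The course of mir-238 was most like those of mir-248, mir-249 and the rare mir-2221 (Pearson r of log2 CPM 0.99, 0.99 and 0.98 over 12 groups). mir-239a was most like mir-63, mir-77 and mir-80 (0.99, 0.98 and 0.98). mir-239b was most like the let-7 family miRNAs mir-84 and mir-48 and like mir-246 (0.97, 0.97 and 0.96). Between members r was 0.95 for mir-238 and mir-239a, 0.76 for mir-238 and mir-239b and 0.58 for the neighbours mir-239a and mir-239b. Each gave way to other hairpins, though to unequal degrees. Among the 192 others mir-238 ranked 5 and mir-239b 43 for likeness to mir-239a, and mir-239a ranked 10 for likeness to mir-238. These values describe group means that share the change with time, and carry no test. The shared courses were of unequal size: mir-63 ran from 776 to 1203 CPM where mir-239a ran from 706 to 3071 CPM.

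**Figure D4:**
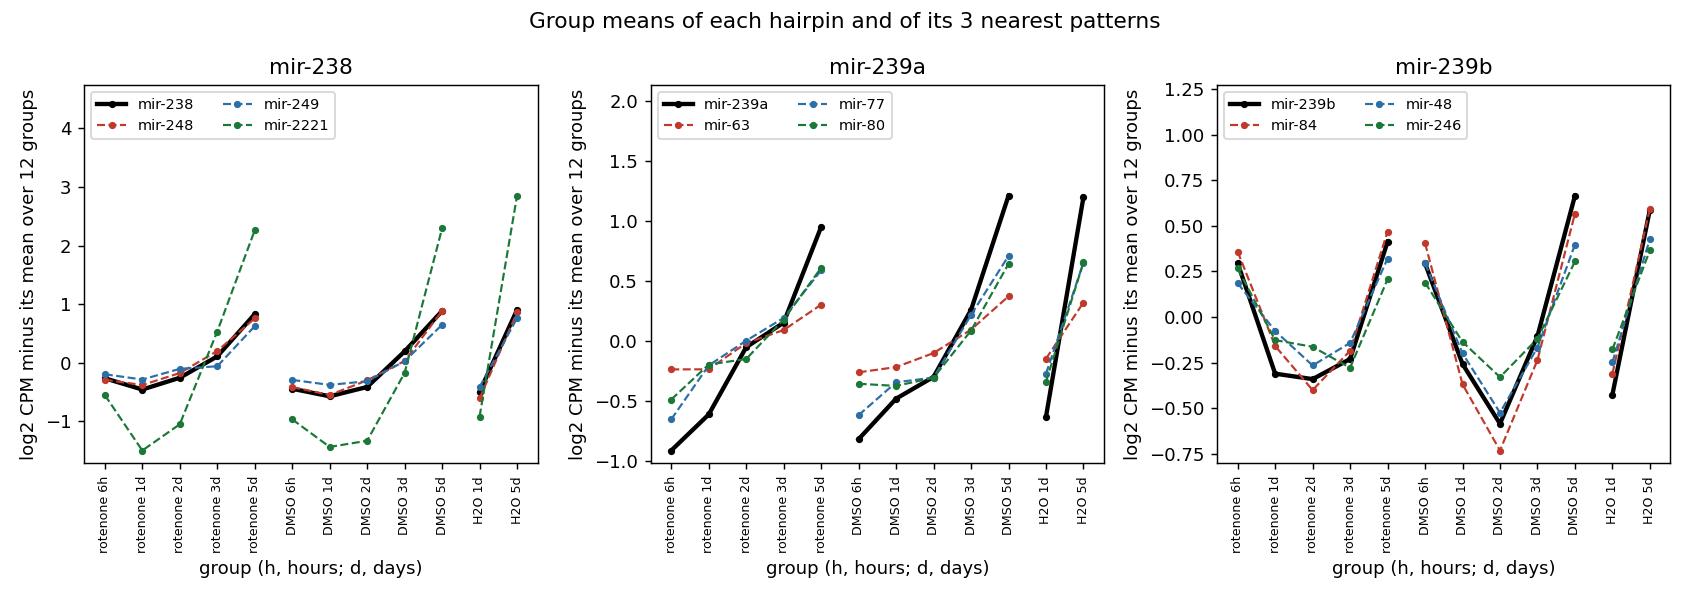
Group means of log2 CPM, centred on the mean over the 12 groups, for each member (black) and the 3 hairpins whose group means correlate most with it (dashed), in the order of rotenone, DMSO and H2O groups. In rotenone and DMSO mir-239b and its 3 nearest patterns first fall and then rise with time, whereas mir-239a rises at every step.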

How the data were processed

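Per the labels' protocols, small RNA libraries were made from total RNA of whole worms by the TruSeq method. The authors deposited raw read counts per miRNA hairpin, with arms not separated, in 1 table of 250 hairpins and 36 libraries. The submitters' processing notes name SAMtools 1.3.1-9, BWA 0.7.12-r1039, Trimmomatic 0.36 and bcl2fastq 1.8.4. How reads with several matching hairpins were treated is not given in the sources used here, nor are build and annotation. Hence mir-239a and mir-239b may share some reads, and positions are left out. No molecular identifiers are named in the labels, so counting errors cover counting only.

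Libraries were grouped by treatment and time from the labels. In R 4.3.3 filterByExpr with a count minimum of 10 kept 193 hairpins. They were scaled with TMM and fitted in edgeR 4.0.16 with 1 mean per group over all 36 libraries (24 residual degrees of freedom). Adjustment followed Benjamini-Hochberg, 1 comparison at a time. SE is the size of a log2 fold change over the square root of its F. Log2 CPM values for correlations use a prior count of 2. Ratios used raw counts with exact two-sided permutation within times or treatments. No pair of libraries of a group agreed within sampling noise (chi-square per degree of freedom 16.2 to 366). Procedures were tested on simulated data.

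Named are the 3 members, the 3 hairpins most correlated with each, up to 3 lifespan-associated miRNAs with the smallest p in a comparison, and the tissue markers. The members and lists were chosen with earlier results of these data known. Alternatives were additive fits with and without lane, a block for the replicate number, each library left out in turn, fits of only the compared groups, no filter, scaling by total counts or by DESeq2 size factors, and DESeq2 1.42.0 itself.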

Additional observations from a re-analysis of the deposited data

Results flagged for a closer look

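The rotenone effect on all 3 members differed between the 5 times when the difference itself was tested in edgeR, with an adjusted p of 0.000314 for mir-239a, 0.0163 for mir-238 and 0.0348 for mir-239b. For mir-239a the difference ran from 0.25 at 2 days to -0.26 at 5 days, for mir-239b from 0.25 at 2 days to -0.25 at 5 days, and for mir-238 from 0.18 at 6 hours to -0.09 at 3 days (log2, rotenone over DMSO, n = 3 libraries a group). Each time has its own pair of lanes, so differences between times and between pairs of lanes cannot be told apart.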

How the results depend on the processing

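Over 75 results, 759 alternative values were computed, of which 666 kept both direction and side of the threshold, 62 lost a call, 8 gained one and 23 changed sign. Of the 354 for the members' changes with time, 329 kept both. Every sign change was in a difference that did not pass, and the cause of the changes below was not tested. All values are log2 differences.

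With DESeq2 size factors mir-239a no longer passed at 5 days (rotenone against DMSO -0.2354, against H2O -0.2191) or at 3 days against 2 days in rotenone (0.1403). Signs turned for mir-239b with rotenone against DMSO at 6 hours (0.03111) and at 2 days against 1 day in rotenone (0.04725), and for mir-239a against H2O at 1 day (-0.01184). With total counts calls were lost for mir-238 (0.1008) and mir-239b (0.1923) against DMSO at 2 days, and for mir-239a at 5 days (DMSO -0.2237, H2O -0.2235), at 1 day against 6 hours in rotenone (0.1188) and at 3 days against 2 days in rotenone (0.1009). They were gained for mir-239a against DMSO at 1 day (-0.2119), 3 days (-0.1962) and over the 5 times (-0.09038), for mir-238 at 3 days (-0.1783) and for mir-238 at 1 day against 6 hours in DMSO (-0.1459). Signs turned for mir-239b at 6 hours (0.08023) and 2 days against 1 day in rotenone (0.06047), and against H2O at 1 day for mir-238 (-0.04082) and mir-239a (-0.0641). With no filter calls were lost for mir-238 (0.1309) and mir-239b (0.2214) at 2 days, mir-239a at 5 days (DMSO -0.2514, H2O -0.2213), mir-238 at 2 days against 1 day in rotenone (0.1823) and mir-239a at 3 days against 2 days in rotenone (0.176). One was gained for mir-238 at 1 day against 6 hours in DMSO (-0.1704). Signs turned at 6 hours for mir-239a (0.005785) and mir-239b (0.1077), and for mir-238 between DMSO and H2O at 5 days (0.0005448). In DESeq2 mir-238 passed over the 5 times (0.06548) and mir-239a did not at 3 days against 2 days in rotenone (0.1403). Signs turned for mir-239b at 6 hours (0.03115) and 2 days against 1 day in rotenone (0.04727) and for mir-239a against H2O at 1 day (-0.01191). With only the 2 groups compared in the fit, calls were lost for mir-238 at 6 hours (0.2568), mir-238 (0.1215) and mir-239b (0.2121) at 2 days and mir-239a at 5 days (DMSO -0.2131, H2O -0.2128). Signs turned for mir-239b at 6 hours (0.07422) and 2 days against 1 day in rotenone (0.01484) and for mir-239a against H2O at 1 day (-0.01888).

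Leaving out 1 library gave, for rotenone against DMSO, 0.1108 to 0.2239 for mir-238 and -0.1082 to 0.1467 for mir-239b at 6 hours, -0.1051 to 0.06324 for mir-239b at 1 day, 0.1213 to 0.2014 for mir-238 and 0.1876 to 0.3056 for mir-239b at 2 days, and -0.3078 to -0.1955 for mir-239a at 5 days. Against H2O it gave -0.001235 to 0.0391 at 1 day and -0.2953 to -0.183 at 5 days for mir-239a. For DMSO against H2O at 5 days it gave -0.06355 to 0.02783 for mir-238 and -0.02766 to 0.05145 for mir-239a. For time it gave -0.1762 to -0.09421 in DMSO and -0.2327 to -0.1195 in rotenone for mir-238 at 1 day against 6 hours. At 2 days against 1 day in DMSO it gave 0.1138 to 0.2109 for mir-238, 0.1564 to 0.2272 for mir-239a and -0.3801 to -0.217 for mir-239b, and in rotenone -0.08638 to 0.03062 for mir-239b. At 3 days against 2 days in rotenone it gave 0.1743 to 0.2377 for mir-239a. Without 1 replicate number the ratio of mir-238 to mir-239a with rotenone was 0.08164 to 0.1738. At 1 day against 6 hours the ratios were then 0.8485 to 0.942 for mir-239a to mir-239b, -0.4906 to -0.4681 for mir-238 to mir-239a and 0.3682 to 0.4739 for mir-238 to mir-239b, a design of 36 arrangements whose smallest exact p is 0.0556, so that none could pass.

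The replicate number as a block changed no call of the members, with 0.062 for mir-238 over the 5 times and 0.13 for the ratio of mir-238 to mir-239a (adjusted exact permutation p = 0.0449). In 0 of 18 comparisons did all same-numbered libraries deviate together (r over 0.1, range -0.289 to 0.268). With 3 libraries a group this rule cannot show whether same-numbered libraries shared a culture or a batch. Of all hairpins, 23 passed at 6 hours with TMM, 13 with DESeq2 size factors and 10 with total counts. At 5 days 2 passed against DMSO with TMM, 1 with size factors and 0 with total counts. Ranked by Spearman's rho, 1 of the 3 nearest patterns of mir-239a and 0 of 3 of mir-239b remained.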

Other observations

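Other lifespan-associated miRNAs changed with time too, as most hairpins did. At 5 days against 1 day in H2O worms mir-34 rose 2.78-fold (1.47 ± 0.052, adjusted p = 1.94e-24), mir-80 1.99-fold (0.99 ± 0.054, adjusted p = 5.72e-19) and mir-246 1.46-fold (0.54 ± 0.053, adjusted p = 1.31e-11) in edgeR. Of the 8 in the list 4 rose and 1 fell in that comparison, where 57.5% of all hairpins passed and 27.5% rose. At 5 days against 3 days 5 rose and 2 fell in DMSO, where 45.6% of all hairpins passed, and 5 rose and 2 fell in rotenone, where 49.2% did. At 1 day against 6 hours in DMSO 1 rose and 5 fell, where 65.3% of all hairpins passed. The 3 with the smallest p were mir-71, which rose (0.62 ± 0.064, adjusted p = 7.48e-11), and lin-4 (-0.85 ± 0.097, adjusted p = 9.25e-10) and mir-34 (-0.43 ± 0.051, adjusted p = 2.06e-09), which fell.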
